A study of Homo sapiens with 12 samples.

Results

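Doxorubicin-resistant SK-N-Be(2)C cells were compared with the wild-type cells of the same neuroblastoma line, with 3 arrays in each group, so that 6 of the 12 arrays of the series entered the comparison. The members were the DoxR and WT arrays, taken by their sample titles. WT cells received neither drug. DoxR cells had been selected in stepwise increased doses of doxorubicin without vorinostat, over 6 to 12 months, starting 2 log10 steps below the inhibitory dose of the parental cells, with 5 passages at a dose about 2 log10 steps above it. The remaining arrays held WT-v cells, exposed to vorinostat (SAHA, a histone deacetylase inhibitor) alone, and DoxR-v cells, made resistant while vorinostat was given at the dose increases. They are described here only for comparison with DoxR cells. All 12 arrays shared the normalization and the fit, so WT-v and DoxR-v arrays also entered the estimate of spread, the detection filter and the choice of each gene's probe. All groups derive from SK-N-Be(2)C, a line with an amplified MYCN gene. DoxR is 1 selected cell population, so what selection in doxorubicin brings and what another selection of the same line would bring cannot be told apart. The 3 arrays of a group are triplicate specimens, and the sources used here do not say whether they came from separate cultures, and the p-values then measure only the spread between these arrays, which may be technical.

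Doxorubicin is an anthracycline that slips between DNA bases, traps topoisomerase II on cut DNA and forms reactive oxygen through its quinone group. Cells in culture can withstand it by pumping it out, most often with the ATP-driven pump P-gp, the product of ABCB1, by reducing its carbonyl group, by tolerating or repairing DNA breaks, or by failing to start apoptosis. Neuroblastoma arises from the sympathetic branch of the neural crest, and its cells often keep the noradrenaline-making programme of that lineage, run by transcription factors such as PHOX2A, HAND2 and GATA3, while others take on a mesenchymal state with vimentin and matrix genes. Amplified or lost chromosome segments are common in such lines, and neighbouring genes on a segment often change in expression together.

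Between 31.3% and 33.1% of probes were detected on the WT arrays and between 34.2% and 34.5% on the DoxR arrays. Arrays of a group correlated at 0.981 to 0.985 in WT and at 0.991 to 0.993 in DoxR cells, and across the groups at 0.938 to 0.953. Signals are given on a log2 scale after background correction and quantile normalization, and differences as log2 DoxR minus WT. The call rule was an adjusted p below 0.1 together with a fold change above 1.5. By this rule 2115 of 12138 measured genes were higher in DoxR cells (17.4%) and 1976 were lower (16.3%), and the median over all genes was 0.01. The list counts below are to be read beside these shares. Of the 12138 genes, 8481 were detected on all 6 DoxR and WT arrays. Another 858 were detected on none of the 6 and were kept for detection on a WT-v or DoxR-v array, and 13 of these were called. Against DoxR-v cells 14.4% of genes were higher and 14.7% lower in DoxR cells, and against WT-v cells 15.6% and 16.1%. More than 4-fold differences were called for 187 genes higher and 153 lower. The 3 DoxR and 3 WT arrays did not overlap in 54.7% of all genes. Most genes named below were picked among called genes without overlap, so their lack of overlap is no added support. With median scaling in place of quantile normalization the median of all genes moved to 0.18, and 72.6% rather than 51.7% of the calls were higher. With the normalized intensities as deposited the log2 differences were a median 0.58 of those given here. On 381 genes no WT array but every DoxR array was detected, and the reverse held for 149. The fold change of such genes is a bound, set against the lowest signal that counted as detected on the dim arrays.

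ABCB1, the gene of P-gp, was clearly present in WT cells and rose further with resistance. Its signal was 10.19, 10.22 and 10.70 on the WT arrays and 12.67, 12.39 and 12.48 on the DoxR arrays. Each DoxR array lay well above each WT array. The difference was 2.15 ± 0.16 (SE, n = 3 per group; 4.43-fold; adjusted p = 4.4e-07), and both ABCB1 probes passed. DoxR cells also exceeded DoxR-v cells (log2 1.06, adjusted p = 0.00025). RefSeq places 2 starts of ABCB1 on the reverse strand of chromosome 7 in GRCh38.p14, and the promoter windows are printed because ABCB1 lies at the centre of the chromosome 7 stretch described further on. The windows run from 250 bases before to 50 after the start, 5′ to 3′ on the strand of the gene, and capitals mark matches to CCAAT or its reverse ATTGG, and to GGGCGG or its reverse CCGCCC. The upstream start lies at chr7:87713246-87713545 and the other at chr7:87600835-87601134, both on the reverse strand. DBF4, a neighbour that rose still more, is shown for its window at chr7:87876243-87876542 on the forward strand, and CDKN1A, among the genes that fell most, for its window at chr6:36678464-36678763 on the forward strand. DBF4 and the start of ABCB1 to display were chosen after the values were known.
ABCB1 upstream start: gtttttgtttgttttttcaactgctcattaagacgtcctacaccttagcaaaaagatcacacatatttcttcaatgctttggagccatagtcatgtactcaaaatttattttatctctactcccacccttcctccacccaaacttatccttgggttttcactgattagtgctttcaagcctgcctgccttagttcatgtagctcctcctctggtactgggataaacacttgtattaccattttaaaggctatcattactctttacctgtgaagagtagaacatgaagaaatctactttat
ABCB1 other start: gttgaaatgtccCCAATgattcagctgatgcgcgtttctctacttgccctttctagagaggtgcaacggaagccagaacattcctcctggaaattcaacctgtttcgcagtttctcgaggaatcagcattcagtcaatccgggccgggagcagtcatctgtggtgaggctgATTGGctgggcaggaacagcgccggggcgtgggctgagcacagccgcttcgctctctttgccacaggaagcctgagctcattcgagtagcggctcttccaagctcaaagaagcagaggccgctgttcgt
DBF4: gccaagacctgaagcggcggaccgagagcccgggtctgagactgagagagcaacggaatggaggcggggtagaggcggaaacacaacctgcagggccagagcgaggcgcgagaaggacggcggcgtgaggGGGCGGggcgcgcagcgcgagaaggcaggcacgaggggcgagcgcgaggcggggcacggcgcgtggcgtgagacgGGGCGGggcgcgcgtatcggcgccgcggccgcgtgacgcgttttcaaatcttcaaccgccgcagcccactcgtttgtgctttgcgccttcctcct
CDKN1A: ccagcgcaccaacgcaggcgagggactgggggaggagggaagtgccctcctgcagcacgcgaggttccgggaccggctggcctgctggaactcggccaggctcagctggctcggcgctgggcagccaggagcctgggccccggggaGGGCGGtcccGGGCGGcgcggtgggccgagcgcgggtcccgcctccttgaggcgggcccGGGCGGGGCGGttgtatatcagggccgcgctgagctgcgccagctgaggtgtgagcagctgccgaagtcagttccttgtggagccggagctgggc

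The upstream ABCB1 window held neither sequence. The other ABCB1 window held CCAAT at position −238 and ATTGG at −79 from the start. The DBF4 window held GGGCGG at −120 and −45, and the CDKN1A window held it at −104, −94, −45 and −40, of which the last pair overlap by a base. TATAAA, or its reverse TTTATA, was in none of the 4 windows. Among 35116 promoter windows of the same length, 34.6% held CCAAT or ATTGG, 45.0% held GGGCGG or CCGCCC and 11.5% held TATAAA or TTTATA. The DBF4 window overlaps that of SLC25A40 on the opposite strand by 232 bases, with 133 bases between the starts. A match is a run of letters and not a measured binding site.

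Enzymes that reduce carbonyl and quinone groups were higher or not called. Of 13 measured, 5 were higher and none lower in DoxR cells, with a median of 0.25, and 1 was lower without WT replicate 2 or without WT replicate 3. AKR1C2, an aldo-keto reductase that acts on steroids and carbonyl compounds, gave 10.05, 10.11 and 9.86 on the WT arrays and 12.95, 13.14 and 12.96 on the DoxR arrays. The groups lay far apart and the DoxR arrays were close together (log2 3.01 ± 0.16, n = 3 per group, adjusted p = 1.7e-08). AKR1C4 was higher by 2.42 by 1 probe, while its other probe was detected on no array of either group. AKR1C3 was higher by 1.20. The AKR1C genes are close copies, and a probe may read more than 1 of them. NQO1, a quinone reductase, read 8.29, 8.55 and 8.51 in WT and 9.80, 9.90 and 9.72 in DoxR cells, again with no overlap (log2 1.35 ± 0.13, adjusted p = 5.4e-06).

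Other defences against drug and oxidant were split. Among 19 genes of glutathione transferases and glutathione synthesis 6 were higher and 4 lower (median 0.17), and only 3 remained higher with the deposited normalized intensities. GSTO2 (1.79) and GSTK1 (1.46) were the furthest up, while GSTT2 (−1.63) and GSTT1 (−1.02), both on chromosome 22, and GSTZ1 (−1.07) were down. GSTT2 has a near-identical copy, GSTT2B, which its probe may also read. Antioxidant enzymes counted 4 higher and 5 lower of 23 (median 0.01), with 3 lower under median scaling. Their shares of 17.4% and 21.7% were near the 17.4% and 16.3% of all genes. KEAP1, the protein that marks the regulator NRF2 for degradation, was higher by 1.16 and NFE2L2, the gene of NRF2 itself, by 0.78. GPX3, a secreted glutathione peroxidase, fell from 8.11, 8.24 and 7.98 in WT to 5.85, 5.69 and 5.46 in DoxR cells. Its arrays did not overlap (log2 −2.45 ± 0.15, adjusted p = 4.4e-08). The metallothionein MT2A, which binds zinc and copper, was higher by 2.20 on the DoxR arrays, 1 of 3 metallothioneins measured, and these genes are close copies too.

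TOP2A and MYCN overlapped between the groups. TOP2A, which encodes topoisomerase II alpha, the enzyme that doxorubicin traps, gave 11.48, 11.53 and 11.82 on the WT arrays and 11.74, 11.59 and 11.63 on the DoxR arrays. The DoxR arrays lay within the WT range and the difference of 0.04 did not pass (adjusted p = 0.839). MYCN, which drives this type of tumour, read 14.55, 14.18 and 14.91 in WT and 14.50, 14.60 and 14.41 in DoxR cells. All 6 arrays were near the top of the signal scale (difference −0.05, adjusted p = 0.873). Among 21 genes of the BCL2 family, which decide whether mitochondria release cytochrome c, 3 were higher and 4 lower (median −0.27), which at 14.3% and 19.05% is near the shares of all genes, 17.4% and 16.3%. With the deposited normalized intensities 1 was higher and 2 were lower, and without DoxR replicate 3 a single gene was higher. BCL2 itself, the inhibitor of that step, read 8.66, 8.72 and 8.88 in WT and 9.84, 9.79 and 9.81 in DoxR cells. Every DoxR array was above every WT array (log2 1.06, adjusted p = 3.2e-05), with 2 of its 3 probes called.

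**Figure D1:**
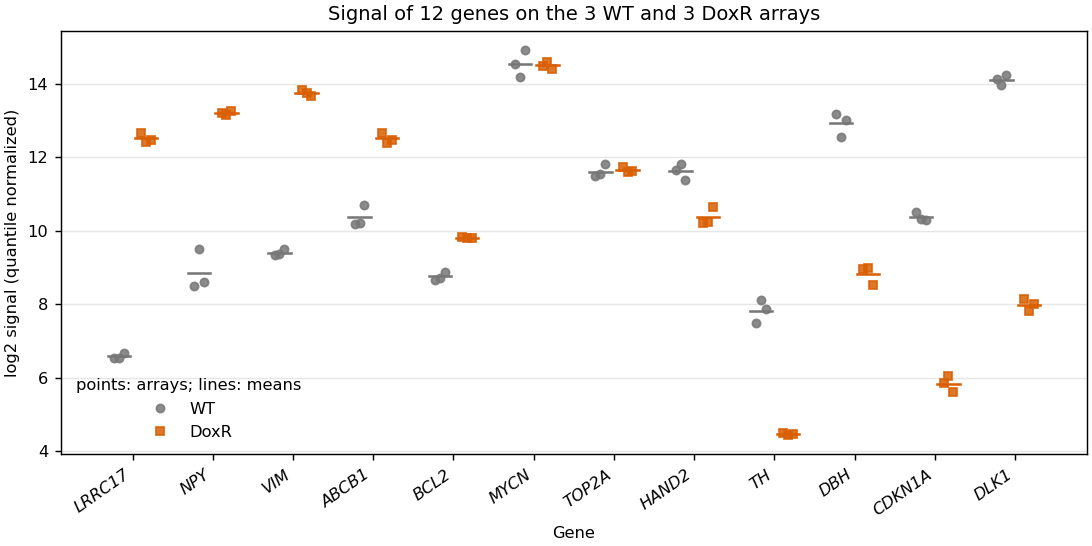
Log2 signal (vertical axis) of 12 genes (horizontal axis) in WT cells (circles) and DoxR cells (squares), with a point per array and a line at the mean of the 3 arrays of a group. LRRC17, NPY, VIM, ABCB1 and BCL2 sit higher on all DoxR arrays, HAND2, TH, DBH, CDKN1A and DLK1 lower, and MYCN and TOP2A overlap.

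Among genes detected on all 6 arrays, the largest rises were those of a secreted protein, a neuropeptide and a cytoskeletal filament. LRRC17, a secreted leucine-rich repeat protein on chromosome 7, had signals of 6.54, 6.53 and 6.68 in WT and 12.65, 12.42 and 12.47 in DoxR cells. It was dim in WT cells and bright in DoxR cells (log2 5.93 ± 0.18, 61.2-fold, adjusted p = 1.4e-10). NPY, a neuropeptide stored with noradrenaline in sympathetic neurons, read 8.48, 9.49 and 8.60 in WT and 13.20, 13.16 and 13.27 in DoxR cells. The second WT array was the highest of its group but still far below the DoxR arrays (log2 4.35 ± 0.22, 20.4-fold, adjusted p = 1e-08). VIM, which encodes the intermediate filament vimentin, gave 9.34, 9.37 and 9.50 in WT against 13.82, 13.74 and 13.68 in DoxR cells (log2 4.34 ± 0.17, adjusted p = 1.2e-09), with no overlap. The next in this order were TUBA4A (3.59), a tubulin; LMO2 (3.50), a transcriptional cofactor of blood precursors; C7 (3.47), a complement component; DUSP6 (3.37), a phosphatase that switches off ERK; NMU (3.34), the peptide neuromedin U; NAV2 (3.28); RAB27B (3.16), a small GTPase of secretory vesicles; PARM1 (3.15) and DKK1 (3.13), a secreted inhibitor of Wnt signalling.

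Some genes were detected in DoxR cells alone. FGL2, a fibrinogen-like protein on chromosome 7, read 4.76, 5.13 and 4.53 in WT, where no array detected it, and 11.33, 11.35 and 11.34 in DoxR cells, at least 52.1-fold higher (adjusted p = 4.5e-11). GRIN1, the obligatory subunit of NMDA glutamate receptors, read 5.21, 5.18 and 5.47 in WT and 10.71, 10.64 and 10.67 in DoxR cells, at least 32.9-fold higher. In both genes the DoxR arrays were close together and far from the undetected WT arrays. MECOM, a zinc finger transcription factor, was at least 26.5-fold higher by 1 of its 2 probes. Behind it came GPR83 (at least 25.1-fold), a G protein-coupled receptor, CUX2 (at least 17.9-fold), a homeobox gene of neurons, and IFI16 (at least 17.7-fold), a sensor of nuclear DNA.

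The genes that fell furthest among those detected on all 6 arrays were headed by an imprinted membrane protein, a cell cycle inhibitor and a neuronal transcription factor. DLK1, an imprinted gene of a membrane protein related to Notch ligands, had signals of 14.13, 13.98 and 14.24 in WT and 8.14, 7.81 and 8.0 in DoxR cells. It went from among the highest signals on the array to a moderate one (log2 −6.13 ± 0.14, 70.2-fold lower, adjusted p = 2e-11). CDKN1A, the p21 inhibitor of cyclin-dependent kinases that p53 switches on, read 10.51, 10.33 and 10.29 in WT and 5.86, 6.05 and 5.60 in DoxR cells. The groups were far apart (log2 −4.54 ± 0.14, 23.3-fold lower, adjusted p = 1.5e-10). FEV, an ETS family transcription factor of serotonin neurons, gave 10.73, 11.22 and 11.16 in WT and 6.71, 6.88 and 6.88 in DoxR cells (log2 −4.22 ± 0.19, adjusted p = 4.2e-09). The arrays of FEV did not overlap either. After DBH, described with the catecholamine genes, followed OPRL1 (−3.89), the nociceptin receptor; HIGD1C (−3.82); KBTBD11 (−3.81); TSPAN9 (−3.72), a tetraspanin; TMEM44 (−3.57); COLEC11 (−3.57), a secreted lectin; SORBS2 (−3.34) and SCG5 (−3.34), a chaperone of prohormone convertases.

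Among genes detected on every WT array and no DoxR array, TAGLN3, a calponin-like protein of neurons, stood first. Its WT signals were 10.41, 10.21 and 9.78 and its DoxR signals 4.63, 4.66 and 4.61, at least 25.8-fold lower (adjusted p = 2.9e-10). TCEAL7, on the X chromosome, was at least 22.9-fold lower, RAC2, a small GTPase on chromosome 22, at least 18.4-fold, IGDCC3 and PARP4 each at least 16.5-fold, and CD24, a surface glycoprotein, at least 15.4-fold.

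Most markers of sympathetic neuroblastoma were still detected in DoxR cells, but more of them were lower than higher. Of 15 markers fixed for the line, 13 were measured, all 13 were detected on every WT array and 11 on every DoxR array. In DoxR cells 2 were higher and 5 lower, INSM1 was detected on 2 arrays and TH on none. Over all genes 17.4% were higher and 16.3% lower. The list of adrenergic core transcription factors stood near those shares, with 4 higher and 4 lower of 23 (17.4% each, median −0.04). With the deposited normalized intensities 2 of that list were lower. PHOX2A, a homeobox regulator of noradrenergic neurons, gave 9.30, 9.52 and 9.75 in WT and 10.15, 10.34 and 10.46 in DoxR cells, and all DoxR arrays were the higher (log2 0.79, adjusted p = 0.0013). TFAP2B, a neural crest regulator, was higher as well (1.20). HAND2, the basic helix-loop-helix partner in this programme, read 11.66, 11.81 and 11.38 in WT and 10.21, 10.25 and 10.65 in DoxR cells, with every DoxR array below every WT array (log2 −1.25 ± 0.20, adjusted p = 0.00032). INSM1, an endocrine zinc finger gene, was lower by 1.56, a call that the deposited normalized intensities did not give. Its DoxR mean of 5.29 lay below the lowest detected signals of the DoxR arrays (5.44 to 5.46), so 1.56 is no measured size. GATA3 (−0.04), GATA2 (−0.05) and ISL1 (0.54) did not pass the rule. Against DoxR-v and WT-v cells, PHOX2A and INSM1 were called in neither comparison, and INSM1 gave a fitted −1.79 in WT-v minus WT. TFAP2B was called against DoxR-v (0.66) but not WT-v cells (0.26). HAND2 was called against WT-v (−0.99) but not DoxR-v cells (0.38). TH and DBH were called lower in DoxR cells against both groups.

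Catecholamine synthesis and storage counted 1 gene higher and 7 lower of 16 measured (median −0.35), and 2 higher with median scaling, without WT replicate 2 or without DoxR replicate 2. TH, the first and rate-limiting enzyme, read 7.48, 8.12 and 7.86 in WT and 4.48, 4.43 and 4.45 in DoxR cells, where no array detected it, at least 5.17-fold lower (adjusted p = 7e-09). DBH, which turns dopamine into noradrenaline, read 13.19, 12.56 and 13.02 in WT and 8.97, 8.99 and 8.53 in DoxR cells. It was among the brightest genes of WT cells and was still detected in DoxR cells (log2 −4.09 ± 0.23, 17.1-fold lower, adjusted p = 2.3e-08). SLC18A2, a vesicular monoamine transporter, was lower at least 2.44-fold, from 6.99, 6.17 and 7.05 to undetected signals of 4.34, 4.74 and 4.5. The other vesicular transporter SLC18A1 (−1.98) and GCH1 (−1.35), which starts the synthesis of the cofactor of TH, were picked out after their values were seen. MAOA, which breaks monoamines down, was the gene that rose, from 5.63, 5.53 and 6.02 to 8.49, 8.50 and 8.35. Its DoxR arrays lay well above the WT arrays, 1 of which did not detect it (log2 2.72, adjusted p = 6.3e-07). DDC, the second enzyme of the path, differed by −0.43 and was not called. In bulk RNA, fewer cells that express such genes and less RNA per cell cannot be told apart.

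Peptides of the secretory granule were divided: of 24 neuropeptides and granins 6 were higher and 8 lower (25% and 33.3%, median −0.31). The lower count was 5 with the deposited normalized intensities, without background correction, with offset 50 and with the mean of a gene's probes. Beside NPY and NMU, CALCB, a calcitonin gene-related peptide, was at least 5.64-fold higher. CRH, the corticotropin-releasing hormone, had WT signals of 10.63, 10.55 and 10.95 and DoxR signals of 8.42, 8.57 and 8.93 (log2 −2.07, adjusted p = 1.9e-05), with no overlap. SCG5 and PAM (−1.22), which amidates peptides, were lower, as was CHGA (−0.79), a granin.

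Genes of the mesenchymal state and the extracellular matrix were more often higher than genes at large, with 15 higher and 9 lower of 42 (median 0.21). Their shares were 35.7% and 21.4%, beside 17.4% and 16.3% of all genes. Beside VIM, VCAN, which encodes the matrix proteoglycan versican, gave 6.05, 5.59 and 5.82 in WT and 10.18, 10.21 and 10.13 in DoxR cells (log2 4.35 ± 0.22, adjusted p = 1.1e-08). It was detected on 2 of the 3 WT arrays and stood far higher on every DoxR array. COL4A1, a basement membrane collagen, was at least 8.90-fold higher. CD44 (3.04), a hyaluronan receptor, and SNAI2 (2.39), a regulator of epithelial to mesenchymal transition, rose as well and were picked out after their values were seen. Opposite to these, LAMA4, a laminin chain, was at least 5.96-fold lower. DCN, the small proteoglycan decorin, read 10.91, 10.40 and 10.26 in WT and 7.42, 7.12 and 7.13 in DoxR cells, and the arrays lay far apart (log2 −3.30 ± 0.20, adjusted p = 6.7e-08). LUM, its relative lumican, was lower by 2.07 on the log2 scale. Actin regulators counted 14 higher and 6 lower of 53, or 9 and 2 with the deposited normalized intensities, and intermediate filaments 5 higher and 4 lower of 13, or 2 lower with those values.

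Neurotrophic signalling was the list with the largest share of genes higher, 7 of 12 measured against 17.4% of all genes, with none lower and a median of 0.90. BDNF, a growth factor for neurons, read 4.56, 4.74 and 4.75 in WT, undetected, and 9.40, 9.50 and 9.33 in DoxR cells, by 1 of its 4 probes. RET, the receptor for GDNF ligands, had WT signals of 9.63, 10.11 and 10.18 and DoxR signals of 11.53, 11.61 and 11.63. All 3 RET probes were higher and the arrays did not overlap (log2 1.62 ± 0.18, adjusted p = 1.8e-05). Its coreceptor GFRA1 (1.09), the cytokine receptors IL6ST (1.38), LIFR (1.18) and CNTFR (0.72), and the sorting receptor SORL1 (1.36) completed the 7.

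Axon guidance genes were among the lists with the most calls, with 19 higher and 10 lower of 43 (median 0.16), though with the deposited normalized intensities only 7 were higher and 5 lower. NTNG1, a netrin on the cell membrane, gave 4.98, 5.45 and 5.79 in WT and 8.46, 8.66 and 8.50 in DoxR cells (log2 3.13 ± 0.20, adjusted p = 7.2e-08). A single WT array detected it, and the DoxR arrays were all far above. The WT mean of 5.41 lay below the lowest detected signals of the WT arrays (5.57 to 5.77), so 3.13 is no measured size. NRP1, a coreceptor of semaphorins and VEGF, read 8.12, 8.57 and 9.25 in WT and 10.71, 10.71 and 10.58 in DoxR cells (log2 2.02 ± 0.22, adjusted p = 1.3e-05). SLIT3, a repellent ligand, was higher by 1.72. UNC5A, a netrin receptor, was lower, from 10.19, 9.88 and 10.27 to 8.27, 8.26 and 8.10 (log2 −1.90). The chemokine receptor CXCR4 was at least 2.63-fold lower.

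Transmitter receptors leaned the other way, with 3 higher and 9 lower of 19 (15.8% and 47.4%, median −0.51). The lower count was 4 with the deposited normalized intensities and 5 with median scaling. GRIN3A, a second NMDA receptor subunit, was at least 5.43-fold higher and CHRM3, a muscarinic receptor, higher by 2.76. GABRB1, a GABA receptor subunit, was detected on every WT array at 8.54, 8.49 and 8.42 and on no DoxR array, at 4.59, 5.01 and 4.39, at least 8.18-fold lower (adjusted p = 3.8e-09). Synaptic vesicle and exocytosis genes counted 13 higher (30.2%) and 8 lower (18.6%) of 43 (6 and 5 with the deposited normalized intensities). Channel genes counted 5 and 5 of 26 (3 lower with the deposited normalized intensities). At 19.2% each way, the channel genes were near the 17.4% and 16.3% of all genes.

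The BEX and TCEAL family, small X-linked genes expressed in neurons, had no member higher and 6 of 12 lower (median −0.53). BEX4 had signals of 9.82, 9.84 and 9.76 in WT and 8.13, 7.93 and 7.88 in DoxR cells, and neither group's spread came near the gap (log2 −1.83 ± 0.14, adjusted p = 3.6e-07). TCEAL8 was lower by 1.06. All of these genes lie on the X chromosome, where the median over 435 genes was −0.30, and the X median against WT was −0.46 in DoxR-v and −0.44 in WT-v cells.

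Imprinted genes, which are read from 1 parental copy, had 2 members higher and 7 lower of 15 (13.3% and 46.7%, median −0.55). NDN, the gene of necdin, a growth suppressor of neurons, gave 8.43, 8.92 and 8.13 in WT and undetected signals of 4.39, 4.75 and 4.41 in DoxR cells, at least 8.25-fold lower (adjusted p = 2.1e-07). IGF2, the fetal growth factor, read 8.23, 8.27 and 8.02 in WT and was likewise undetected in DoxR cells, at least 6.59-fold lower. MEG3 (−2.45), the non-coding RNA that lies beside DLK1, is named after its value was seen. PEG10 (1.74) and SGCE (0.72), which adjoin each other on chromosome 7, were the genes that rose.

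The insulin-like growth factor axis had 6 genes higher and 7 lower of 19 (median −0.25), with 3 higher in the deposited normalized intensities or without background correction. IGFBP3, a binding protein of these factors, gave 4.82, 5.75 and 4.43 in WT, undetected, and 9.12, 9.28 and 9.41 in DoxR cells, at least 12.4-fold higher (adjusted p = 1.1e-07). IGFBP5 rose from 9.99, 9.43 and 10.00 to 12.20, 12.19 and 11.92 (log2 2.30), while IGFBP7 was lower by 3.11 on the log2 scale. The naming rule had required that no arrays overlap in these genes.

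Pathways of other growth signals held single strong changes. In the TGF-beta and BMP pathway 9 were higher and 2 lower of 27 (median 0.29, and 5 higher with the deposited normalized intensities). BAMBI, a decoy receptor that blunts this pathway, read 10.81, 10.76 and 10.92 in WT and between 12.91 and 13.04 in DoxR cells, with the groups far apart (log2 2.15 ± 0.14, adjusted p = 7.7e-08). TGFBR2, the type II receptor, was at least 2.05-fold higher. In the Wnt pathway 8 were higher and 5 lower of 31 (5 and 2 with the deposited normalized intensities), led by LEF1 (3.40), a transcription factor that beta-catenin binds, and DKK1. Among 28 MAPK and immediate early genes 6 were higher and 3 lower, led by SPRY1 (3.75), which restrains receptor tyrosine kinases, and DUSP6, and 5 were lower without WT replicate 3. Of 28 receptor tyrosine kinases and ligands 6 were higher and 3 lower, though 2 were higher with the deposited normalized intensities. For Wnt genes the shares higher and lower were 25.8% and 16.1%. MAPK genes and these receptors and ligands each had 21.4% and 10.7%, beside 17.4% and 16.3% of all genes. KITLG, the ligand of KIT, was at least 5.46-fold higher, and PDGFRB, a receptor of platelet-derived growth factor, was lower, from 9.63, 9.12 and 9.12 to 5.27, 5.82 and 5.74 (log2 −3.68). CRABP2, which carries retinoic acid to its receptors, was higher by 3.11.

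Most proliferation genes were not called, and their shares of higher genes lay near the 17.4% of all genes or somewhat above it. In DNA replication and S phase 10 were higher and 4 lower of 48 (median 0.28), in mitosis 8 and 2 of 46 (0.19; 17.4% higher), and in DNA damage repair 14 and 4 of 54 (0.24; 25.9% higher). The higher counts moved with processing: replication counted 5 and repair 8 with the deposited normalized intensities, mitosis 15 and repair 22 with median scaling, and replication 6 without WT replicate 1. DBF4, the activating subunit of the kinase CDC7 that fires replication origins, gave 4.57, 5.66 and 5.96 in WT and 8.06, 7.94 and 8.33 in DoxR cells (log2 2.71 ± 0.29, adjusted p = 1.2e-05). The first WT array was the lowest, and CDC7 itself was higher by 1.03. NBN, a component of the complex that senses double-strand breaks, read 8.05, 8.37 and 8.92 in WT and 10.20, 10.08 and 10.18 in DoxR cells (log2 1.70 ± 0.19, adjusted p = 1.4e-05). It lies in the part of chromosome 8 described further on. ATM (1.14), the kinase that this complex activates, and ERCC5 (1.33), a nuclease of nucleotide excision repair, rose as well, while XRCC6 (−1.03), a Ku subunit on chromosome 22, was lower. HMMR (1.11), CENPF (1.10) and KIF11 (1.08) led the mitotic genes.

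Inhibitors of the cell cycle and genes downstream of p53 were mixed. Of 24 p53 genes and targets 7 were higher and 7 lower (29.2% each, median −0.20), with 4 lower under median scaling and 3 higher with the deposited normalized intensities. Beside CDKN1A, GADD45G, a growth arrest gene, fell from 9.35, 8.46 and 8.03 to 6.08, 6.17 and 6.13 (log2 −2.48 ± 0.29, adjusted p = 2.6e-05), and TNFRSF10B, a TRAIL death receptor, fell by 1.57 on the log2 scale. XPC (0.92), which recognises damaged DNA, was higher. Among 15 CDK inhibitors, RB relatives and partner cyclins 1 was higher (4 with median scaling or without WT replicate 3), RBL2 (1.13), and 5 were lower, among them CCND3 (−1.33) and CCNE1 (−1.31). Replication-dependent histones, whose transcripts lack a poly(A) tail, counted 1 higher and 9 lower of 30 (median −0.30), or 5 lower with the deposited normalized intensities. H4C12 read 8.33, 8.51 and 7.22 in WT and 6.29, 6.49 and 6.09 in DoxR cells (log2 −1.73, adjusted p = 0.00067), and these genes are so alike that probes may read several. Most of them lie on chromosome 6, whose median was −0.24.

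Few genes of the respiratory chain or the ribosome were called. Of 69 nuclear genes of the respiratory complexes 2 were higher and 7 lower (median −0.08), and of 72 cytosolic ribosomal proteins 2 and 5 (median −0.03). RPL39L, a ribosomal protein paralog, was the exception in size, from 10.38, 10.49 and 10.11 in WT to 5.59, 5.08 and 4.90 in DoxR cells, where 1 array detected it (log2 −5.14 ± 0.18, adjusted p = 2.9e-10). Its DoxR mean of 5.19 lay below the lowest detected signals of the DoxR arrays (5.44 to 5.46), so −5.14 is no measured size. Ribosomal proteins have many processed copies, so the RPL39L probe may read others too. Fatty acid oxidation counted 3 higher and 8 lower of 34, but 7 and 5 with median scaling, and the tricarboxylic acid cycle 4 and 5 of 28, but 8 and 2 with median scaling, so that neither has a settled direction. Glycolysis counted 3 and 2 of 18 (16.7% and 11.1%), beside 17.4% and 16.3% of all genes. The hypoxia response had 6 higher and 10 lower of 31 (median −0.18), and 1 higher with the deposited normalized intensities. VEGFA, the vascular growth factor, gave 8.39, 8.05 and 7.78 in WT and 6.25, 6.59 and 6.34 in DoxR cells, all DoxR arrays being lower (log2 −1.68 ± 0.21, adjusted p = 3.5e-05). The 2 regulators of glycolytic flux on this list moved apart, with PFKFB4 at −2.23 and PFKFB3 at 1.71. PFKFB4 was detected on 1 DoxR array, so the size of its fall is uncertain. The other PFKFB3 probe, detected on every array of both groups, differed by 0.52 and was not called.

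Proteasome and lysosome genes had shares of lower genes close to the 16.3% of all genes. No proteasome gene of 35 was higher and 7 (20%) were lower (median −0.30, and 4 lower with median scaling), led by PSMD3 (−1.16) and PSMB3 (−0.88), both on chromosome 17. Lysosomal genes counted 4 higher and 9 (22.5%) lower of 40, which turned to 11 and 4 with median scaling. Among these CTSH, the protease cathepsin H, read 9.20, 8.89 and 8.89 in WT and 6.47, 6.82 and 6.77 in DoxR cells (log2 −2.30, adjusted p = 2.2e-07), a clear gap. Antigen presentation and interferon genes had 4 higher and 8 lower of 26 (median −0.23), or 1 and 2 with the deposited normalized intensities. ISG15, an interferon-induced ubiquitin-like protein, gave 7.41, 7.71 and 6.77 in WT and was detected on no DoxR array, at least 3.60-fold lower (adjusted p = 2.1e-06). OAS1 (−1.97), which senses double-stranded RNA, was lower too. Its DoxR mean of 5.32 lay below the lowest detected signals of the DoxR arrays (5.44 to 5.46), so −1.97 is no measured size.

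**Figure D2:**
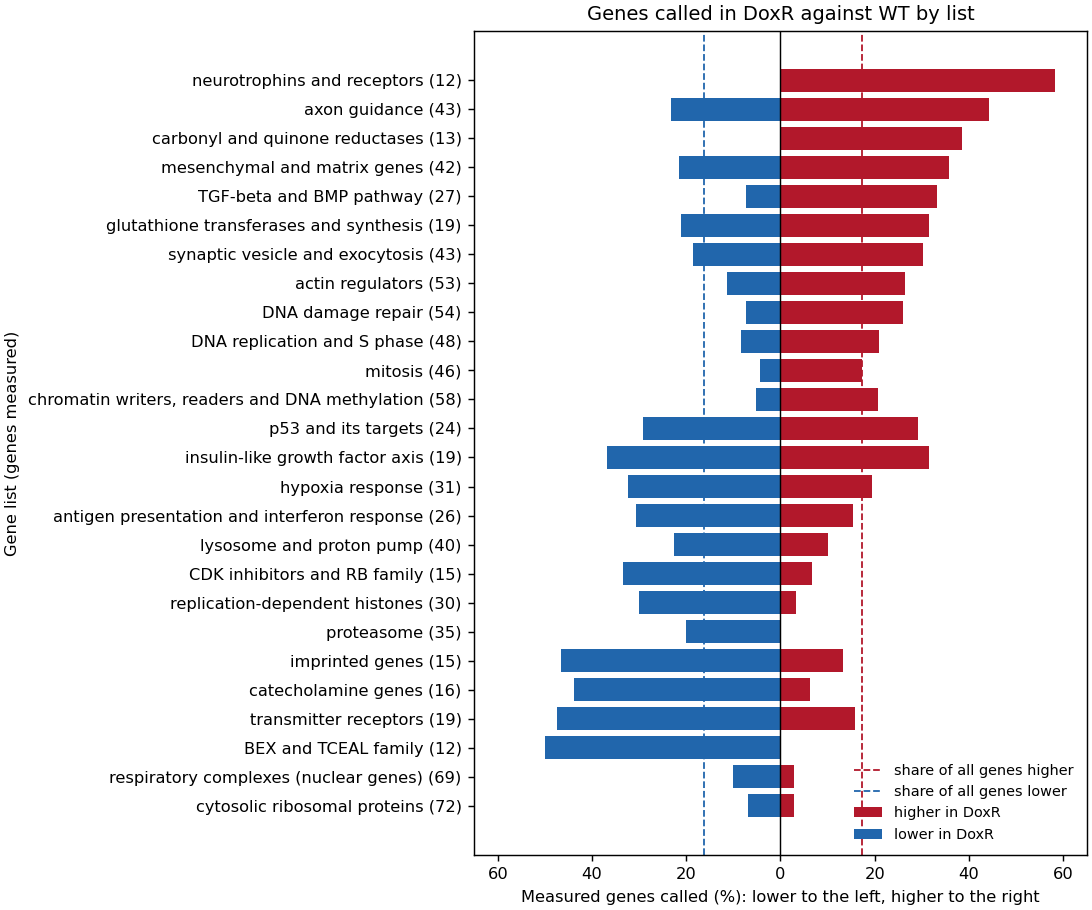
Share of the measured genes of 26 of the 63 lists that were called higher (right) or lower (left) in DoxR than in WT cells, in percent, with the number measured beside each list and the shares over all 12138 genes as dashed lines. Neurotrophins and receptors reach furthest to the right with 7 of 12 higher, and the BEX and TCEAL family has 6 of 12 lower and none higher.

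Few markers of other cells that a culture could hold were measured. Of the 20 fixed blood cell markers 6 were measured, with 1 higher and 2 lower, of 16 epithelial markers 4, with 1 and 1, and of 14 Schwann and glial markers 3, with 1 and 2. The endothelial list had 1 measured gene of 10, TEK, which differed by 0.50 and was not called. Their part in the results was not tested.

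The neighbours of ABCB1 on the long arm of chromosome 7 rose with it. Within 5 Mb on either side 22 genes were measured, counting ABCB1, of which 18 were higher and 1 lower, against 17.4% and 16.3% of all genes, with a median of 1.37. All 11 genes within 1 Mb were higher, from 0.84 in DMTF1, a cyclin D-binding transcription factor, to 2.94 in CROT, a peroxisomal carnitine transferase. Of the 11 farther off, 7 were higher. CROT read 5.99, 5.44 and 6.07 in WT and 8.85, 8.79 and 8.70 in DoxR cells, and ADAM22, a neuronal surface protein, 6.93, 6.36 and 6.90 against 9.55, 9.53 and 9.46. In both, each DoxR array was far above each WT array (log2 2.94 ± 0.21, adjusted p = 2.3e-07, and 2.78 ± 0.18, adjusted p = 9.1e-08). Among its nearest neighbours RUNDC3B was higher by 1.96, SLC25A40, a mitochondrial carrier, by 2.19 and SRI, the calcium-binding protein sorcin, by 1.61. The lone gene lower was SEMA3A (−1.31), a semaphorin 3.55 Mb away, a call that the deposited normalized intensities did not give. SEMA3E (−0.47), GTPBP10 (0.31) and STEAP1 were not called, though 1 of the 2 SEMA3E probes was called higher. STEAP1 was detected on no array of either group. Against DoxR-v cells 11 of the 22 were higher in DoxR cells and 3 lower (median 0.54), and against WT-v cells 16 and 1. The median of DoxR-v minus WT over the same genes was 0.61.

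**Figure D3:**
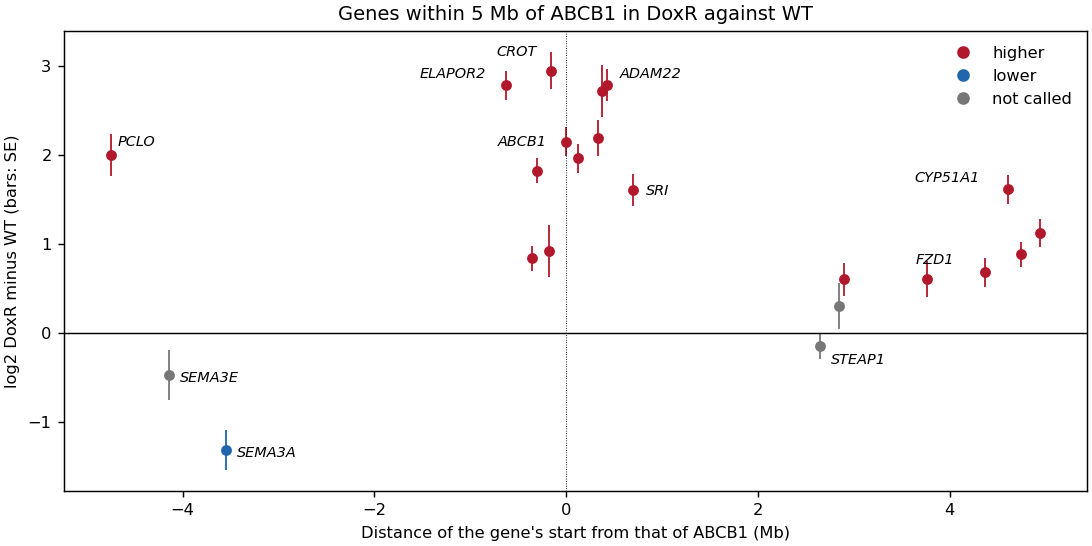
Log2 difference of DoxR minus WT for the 22 measured genes within 5 Mb of ABCB1, by the distance of their starts from that of ABCB1 in Mb, with standard errors as bars and colours for genes called higher, called lower or not called. All 11 genes within 1 Mb lie above 0, and SEMA3A is the called gene below it.

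Chromosomes differed in how their genes moved, and chromosome 22 stood apart. Of its 302 measured genes 3 were higher and 158 (52.3%) lower, against 16.3% lower over all genes. The median was −0.62 with quartiles of −1.02 and −0.20, and 87.4% of its genes were below 0. Outside chromosome 22, 1818 of 11836 genes were lower (15.4%). Among its 197 genes detected on all 6 arrays 122 were lower and none higher. The median deviation of its genes from their WT means was −0.65, −0.58 and −0.61 on the DoxR arrays and 0.01, 0.01 and −0.03 on the WT arrays. The DoxR-v arrays, at −0.08, −0.05 and −0.20, and the WT-v arrays, at 0.02, 0.01 and 0.12, were both far from the DoxR arrays. Against DoxR-v cells 133 of the genes were lower and 2 higher in DoxR cells, and against WT-v cells 173 and 3. The shift was spread over the whole chromosome: each of its 10 blocks of consecutive genes had 13 to 18 lower and at most 2 higher. The median was −0.38 with median scaling and −0.30 with the deposited normalized intensities.

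Genes of many functions were lower on chromosome 22. HIC2, a transcriptional repressor, had WT signals of 10.13, 9.77 and 9.78 and DoxR signals of 7.46, 7.45 and 7.46 (log2 −2.44 ± 0.18, adjusted p = 2.7e-07). NEFH, the heavy neurofilament chain, read 8.09, 8.23 and 8.50 in WT and 6.16, 5.51 and 5.78 in DoxR cells (log2 −2.46 ± 0.24, adjusted p = 5.6e-06). The naming rule required that the groups not overlap in either. UPB1, which degrades pyrimidines, was lower too. Its DoxR mean of 4.45 lay below the lowest detected signals of the DoxR arrays (5.44 to 5.46). The fitted −2.79 of UPB1 is therefore no measured size. Nor is the fitted −2.29 of KIAA0930, whose DoxR mean was 5.42. PRR5 (at least 4.05-fold lower), a partner of the mTOR complex, SBF1 (−2.22) and AP1B1 (−2.07), an adaptor of clathrin coats, also lay along the chromosome. So did ATP6V1E1 (−1.76), a proton pump subunit, and UQCR10 (−1.66), a subunit of respiratory complex III. Across all 63 gene lists, 35 genes lie on chromosome 22, of which 19 were lower and none higher.

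**Figure D4:**
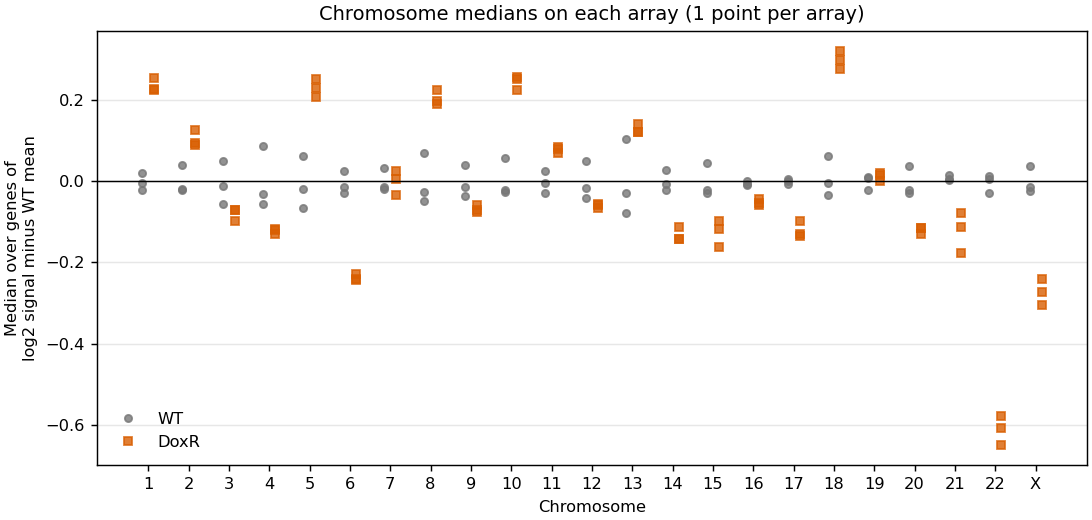
Median over the genes of each chromosome (horizontal axis) of the log2 signal minus the mean of the WT arrays (vertical axis), with circles for the 3 WT arrays and squares for the 3 DoxR arrays. Chromosome 22 is lowest, with DoxR arrays at −0.65, −0.58 and −0.61. Chromosomes 1, 2, 5, 8, 10, 11, 13 and 18 have all DoxR arrays above the WT arrays.

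On other chromosomes the shares were less uneven. Chromosomes 18, 8, 1, 10 and 5 had 31.1%, 30.3%, 28.2%, 27.1% and 27.1% of their genes higher and medians of 0.26, 0.20, 0.23, 0.24 and 0.23. Lower genes made up 27.4% on the X chromosome, 26.1% on chromosome 6, 25.1% on chromosome 4 and 23.3% on chromosome 17. The medians of chromosomes 4 (−0.12) and 17 (−0.13) turned above 0 with median scaling, which moved the median of all genes by 0.18. Chromosome 7 had 20.9% higher and 21.4% lower and a median of 0.01, with opposite shifts along its length.

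Cut into 393 blocks of neighbouring genes, several chromosomes fell into long parts that shifted 1 way. The coordinates here are RefSeq positions of the genes in GRCh38.p14, and the rule that joined at least 2 consecutive blocks with medians beyond 0.4 was chosen after the values were seen. The short arm of chromosome 7 from PDGFA to CYCS (chr7:497258-25125260) had 2 of 90 genes higher and 48 lower, with a median of −0.62, and DPY19L1 to FIGNL1 (chr7:34928881-50450350) had 5 higher and 27 lower of 60. On the long arm, GTF2IRD2 to GNGT1 (chr7:74796151-93911265), which holds ABCB1, had 39 higher and 5 lower of 60 and a median of 0.91. Much of the long arm of chromosome 8, from PEX2 to PLEC (chr8:76980258-143976745), had 100 higher and 7 lower of 180 and a median of 0.64. On chromosome 17, MYO19 to PCTP (chr17:36495636-55852715) had 6 higher and 97 lower of 210 and a median of −0.52. The end of chromosome 1, RPL21P28 to PGBD2 (chr1:212051486-248930191), had 67 higher and 7 lower of 140 and a median of 0.56.

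Some parts differed from DoxR-v cells as well and others did not. Over the part of chromosome 8, 116 of 180 genes were higher in DoxR than in DoxR-v cells and 2 lower, and the median of DoxR-v minus WT was −0.14. For the part of chromosome 17, 120 of 210 were lower than in DoxR-v cells and 4 higher (DoxR-v minus WT 0.15), and for PDGFA to CYCS 54 of 90 and 3 (0.09). The end of chromosome 3, PARL to RPL35A (chr3:183826489-197960177), had 1 gene higher and 34 lower of 77 against WT with a median of −0.48, but 7 higher and 10 lower against DoxR-v, whose own median against WT was −0.50. On chromosome 4, FAM13A to SEC24D (chr4:88725960-118836126) had 27 of 60 lower against WT (median −0.53) and 6 lower and 6 higher against DoxR-v (DoxR-v minus WT −0.46). On the X chromosome, RBM3 to ZXDA (chrX:48574484-57910458) had 25 of 60 lower and a median of −0.49, beside −0.51 in DoxR-v and −0.61 in WT-v cells against WT.

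**Figure D5:**
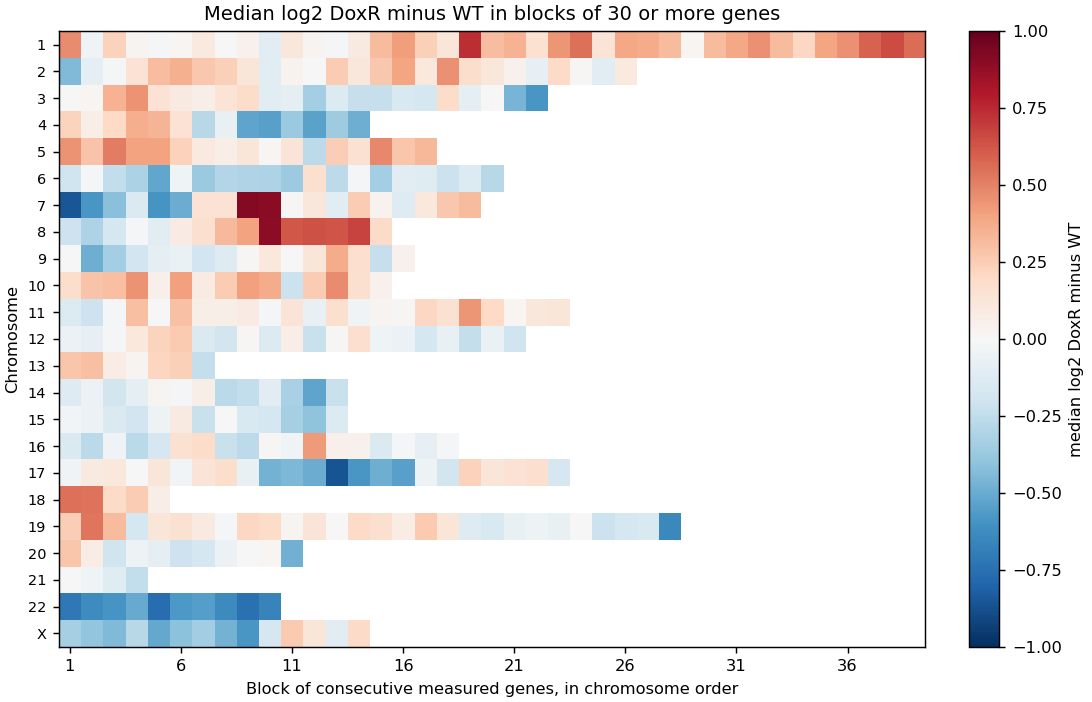
Median log2 DoxR minus WT (colour, red above and blue below 0, from −1 to 1) in blocks of 30 or more consecutive measured genes, with chromosomes as rows and blocks in chromosome order from left to right. All 10 blocks of chromosome 22 are blue, as are 7 in a row on chromosome 17, while chromosome 7 opens in blue and has its darkest red blocks around ABCB1.

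Over all chromosomes, runs of 30 consecutive genes reached at most 24 higher and 24 lower, where the median run had 5 higher and 4 lower. POMZP3 to FZD1 on chromosome 7 had 24 higher and 2 lower and a median of 1.28, and FGL2, ABCB1 and CROT lie in it. SUN1 to FBXL18 at the other end of chromosome 7 had 24 lower and 1 higher (median −1.0), or 15 lower with the deposited normalized intensities. Its lower genes held ADAP1 (−1.86), which binds ARF6 and inositol phosphates, INTS1 (−1.29), a subunit of the Integrator complex, and GNA12 (−1.23), a G protein alpha subunit. On chromosome 8 OTUD6B-AS1 to STK3 had 22 higher and none lower (median 0.94), with MATN2 (1.85), a matrix protein, RAD54B (1.45), a recombination factor, and SDC2 (1.33), a heparan sulphate proteoglycan. MAILR to DEPTOR had 21 higher and 2 lower, and in it ANGPT1, the ligand of the TIE2 receptor, gave 5.64, 5.33 and 6.05 in WT and 9.95, 9.84 and 9.85 in DoxR cells (log2 4.21 ± 0.22, adjusted p = 1.4e-08). It was dim in WT cells, with 2 arrays detecting it.

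PLPPR4 to CLCC1 on chromosome 1 had 20 higher and 1 lower (median 0.91), and NTNG1 is part of it. PALMD, a paralemmin relative, read 7.33, 7.50 and 7.42 in WT and 10.34, 10.30 and 10.03 in DoxR cells, with a wide gap (log2 2.81 ± 0.15, adjusted p = 2.1e-08). AMY2A, a pancreatic amylase, was at least 13.2-fold higher by 1 probe. Its other probe, detected on 2 WT arrays and every DoxR array, differed by 0.25 and was not called (adjusted p = 0.436). The amylase genes are near-identical copies, and a probe may read several. On chromosome 17 ATP6V0A1 to ETV4 had 19 lower and none higher (median −0.86). Here RND2, a small GTPase of neurons, gave 9.07, 9.16 and 8.95 in WT and 6.76, 7.05 and 7.14 in DoxR cells (log2 −2.07 ± 0.14, adjusted p = 1.7e-07). BECN1, a core gene of autophagy, was lower by 1.53 in the same run, and COA3, an assembly factor of cytochrome oxidase, by 1.63. Against DoxR-v cells 22 of its 30 genes were lower and none higher. The zinc finger cluster at the end of chromosome 19, ZNF805 to ZNF544, had 19 lower and 1 higher against WT (median −0.87). Its lower count was 8 with the deposited normalized intensities and 12 without background correction. ZNF256 (−2.32), ZNF329 (−1.84) and ZSCAN18 (−1.83) were among its lower genes. Against DoxR-v cells only 2 genes of the cluster were lower and 1 was higher. The median of DoxR-v minus WT over the cluster was −0.74.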

How the data were processed

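Total RNA was extracted, per the labels with Trizol and an RNeasy clean-up and per the study's methods with the RNeasy kit, and biotin-labelled cRNA was hybridised to Human HT-12 v4 BeadChips. Groups came from the sample titles. The authors deposited the signal intensity of each probe on each array, taken over its beads and without normalization between arrays, with software not given in the sources used here. Per the file headers each signal has a detection p-value. A second set of intensities deposited by the authors was quantile normalized. The submitters' processing notes name R 3.0.1 and lumi 2.13.3.

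Background was corrected by normexp from the detection p-values with an offset of 16, followed by quantile normalization and log2. The platform annotation gave a single symbol to 30113 of 47323 probes, several to 8 and none to 17202, and RefSeq held 30074 of them. For a probe to be kept (21730 were), its detection p-value had to be below 0.01 on 1 array or more. Each of the 12138 genes took its kept probe with the highest mean. R 4.3.3 and limma 3.58.1 fitted all 12 arrays, a mean for each of the groups, with Benjamini-Hochberg adjustment over all probes. Errors are standard errors of the fitted difference. The number of arrays limits the precision. The fit was tested on simulated data. Replicate numbers did not pair the arrays (r of same-numbered deviations −0.01, −0.03 and −0.09).

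The members, gene lists and tests were chosen with earlier results of these data known. Named genes were those called without overlap: the 12 largest changes each way among genes detected on all 6 arrays, the 6 largest bounds each way, the 3 largest each way per list and the 5 largest per stretch, with a few genes always named, of which 1 is not reported here. Alternatives were the deposited normalized intensities, no background correction, offset 50, median scaling, other detection filters, only these 6 arrays, a replicate block, the mean of a gene's probes, other thresholds, and leaving out each array. Chromosome medians under each were added after seeing the data. Sequences are from RefSeq, GRCh38.p14.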

Additional observations from a re-analysis of the deposited data

Results flagged for a closer look

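For 5 of the genes always named, DoxR minus WT differed from DoxR-v minus WT-v by a test of the difference itself in limma. Vorinostat and the separate selection of the resistant populations cannot be told apart in that difference. ABCB1 was higher by 2.15 without and by 0.89 with vorinostat, a difference of 1.25 (adjusted p = 0.00105). TH gave fitted values of −3.37 and 0.01, a difference of −3.37 (adjusted p = 2.7e-07), but no DoxR array detected it, so −3.37 is no measured size and the fall is known only as at least 5.17-fold. DBH gave −4.09 and 0.88, a difference of −4.97 (adjusted p = 1.5e-07). CDKN1A gave −4.54 and 3.34, the widest of the 5, with a difference of −7.88 (adjusted p = 3.8e-11). BCL2 gave 1.06 and 0.17, a difference of 0.89 (adjusted p = 0.0022). The difference did not pass for MYCN (0.12, adjusted p = 0.761) and TOP2A (0.29, adjusted p = 0.294). Among probes to which no gene symbol is given here, and which entered no gene count, 572 were higher and 647 lower in DoxR than in WT cells.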

How the results depend on the processing

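The 2115 genes higher and 1976 lower became 985 and 977 with the deposited normalized intensities, 1192 and 1160 without background correction, 3241 and 1225 with median scaling, and 921 and 864 at a fold change over 2. They ranged from 2007 to 2406 higher and from 1924 to 2179 lower when 1 array was left out. With the replicate number as a block 2114 were higher and 1974 lower, and 4078 of the calls were shared. This replicate block left ABCB1 at 2.15 (adjusted p = 3.4e-06), and ABCB1 kept its call under every alternative run, between 2.04 and 2.36. Of 367 other named genes that were called, none reversed. The deposited normalized intensities lost 80 of them, no background correction 52, a fold change over 2 lost 89 and median scaling 15. Named genes called against DoxR-v went from 249 to 151 at a fold change over 2. The chromosome 22 median was −0.62, and −0.30 with the deposited normalized intensities, −0.38 without background correction and with median scaling, and −0.47 with offset 50. Median scaling turned the medians of chromosomes 4 (0.0638), 14 (0.0673), 15 (0.0473), 17 (0.0887), 20 (0.0630) and 21 (0.0712) above 0. The cause of these changes was not tested. The files name no BeadChip, so a BeadChip block was not run. Genes near background have only bounds, and the signal of undetected probes limits how far below them a level could lie.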
